A study of Mus musculus with 18 samples.

Results

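The genes described here are 10 regulators and products of the fat and bone fates: Pparg, Cebpa, Cebpb, Cebpd, Fabp4 and Lpl on the fat side, and Runx1, Runx2, Sp7 and Alpl on the bone side. They were taken by name from the 35275 genes measured in a cell line that normally makes muscle, as alternative fates in cells with little Myod1 transcript. All 10 were present in the table, and 8 of them were abundant enough to be tested; Sp7 and Alpl were not. The cells were C2C12, an established line of mouse myoblasts, from a stock that the labels describe as PAX7 negative. Control cells, labelled wild type, were compared with cells overexpressing the spliced form of MUNC (MUNC spliced) and with cells overexpressing its genomic, unspliced form (MUNC genomic). MUNC is a long noncoding RNA transcribed near Myod1, the gene of a master regulator of muscle. Each of the 3 kinds of cell was sampled in growth medium with 20% fetal bovine serum at about 80% confluency (GM) and after 3 days in differentiation medium with 2% horse serum (DM3). The 6 groups held 3 replicates each, 18 libraries in all, and polyadenylated RNA was sequenced. Whether each overexpressing line was 1 clone or a pool, and which vector or promoter drove MUNC, is not given in the sources used here, so an effect of MUNC and a property of the line cannot be told apart. The MUNC transcript itself was not analysed here. No label says which replicates came from separate cultures, so p-values measure only the spread between these samples, and in bulk RNA fewer cells of a type cannot be told from less RNA per cell.

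Mesenchymal progenitors can become muscle, fat or bone, and each fate is driven by a small set of transcription factors. In the fat pathway, Cebpb and Cebpd encode C/EBP factors that act early and induce Pparg and Cebpa. These 2 later factors maintain each other and switch on adipocyte genes such as Fabp4, a fatty acid carrier, and Lpl, a secreted lipase that frees fatty acids from circulating triglyceride. In the bone pathway, Runx2 acts first, Sp7 (osterix) acts downstream of it, and Alpl, the tissue-nonspecific alkaline phosphatase, is an enzyme needed for mineralization. Runx1 is a close relative of Runx2 that is best known from blood formation and is also made by myoblasts.

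The known route from C/EBP factors to Pparg makes the sequences in front of these genes useful to see. The RefSeq promoter table for GRCm38.p6 held entries for 6 of the 10 genes: Pparg, Cebpa, Cebpb, Runx1, Runx2 and Alpl. The 250 bases upstream of each start were searched on both strands for the C/EBP pattern TTGCNNAA, the E-box CANNTG that muscle factors bind, and the RUNX pattern TGTGGT. Of 32851 promoter windows of the same length, 9.56% held the C/EBP pattern, 66.2% held an E-box and 14.05% held the RUNX pattern. Only the third Pparg start and the single Runx2 start had a C/EBP match among the windows of these genes, and both are shown 5′ to 3′ on the strand of the gene, with the C/EBP matches in capitals.
Pparg start 3, chr6:115421816-115422065, plus strand: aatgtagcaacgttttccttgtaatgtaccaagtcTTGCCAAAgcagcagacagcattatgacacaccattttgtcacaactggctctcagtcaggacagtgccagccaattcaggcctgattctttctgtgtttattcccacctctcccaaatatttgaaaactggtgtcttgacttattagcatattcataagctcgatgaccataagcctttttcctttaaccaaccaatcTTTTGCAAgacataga
Runx2 start, chr17:44814657-44814686, minus strand: agtaatagtgcTTGCAAAAaataggagttt
The Pparg window held matches beginning 215 and 16 bases before the start, and an E-box, CAACTG, beginning 173 bases before it. The Runx2 stretch is the 30 bases around a match that begins 48 bases before the RefSeq start. The GENCODE annotation begins Runx2 further upstream, at position 44814797, so there the stretch lies inside the gene and not before it. No C/EBP match lay in the windows of Cebpa, Cebpb, Runx1 or Alpl. The only RUNX match, ACCACA, began 80 bases before the Runx2 start. E-boxes also lay in the windows of Pparg start 2, Runx1 start 1, Runx2 and both Alpl starts. A match describes letters and not a bound site, and counts per gene do not separate the 3 annotated starts of Pparg.

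Levels are in FPM, fragments scaled for library size, which the authors deposited and which corresponded to 38416702 to 68788327 reads per library. A gene without reads could have had up to 3, which came to at most 0.0757 FPM in any library; this limit covers counting error only. The labelled cell type was checked with 11 myogenic markers, 9 of which reached 0.5 FPM somewhere. Their summed level was 128 to 163 FPM in control GM, 241 to 338 FPM in MUNC spliced GM and 387 to 685 FPM in MUNC genomic GM, and 212 to 289, 425 to 1022 and 1005 to 1174 FPM in the DM3 groups in the same order. Myod1 was nearly absent from control cells, with 0 to 12 reads per library, and reached 8.84 to 53.3 FPM in MUNC spliced and 1.66 to 22.5 FPM in MUNC genomic libraries. Of 8 adipocyte markers, 6 stayed below 0.5 FPM in every library and Lep had no read. Their sum never exceeded 10.2 FPM and came mainly from Lipe. Of 8 osteoblast markers, 5 stayed below 0.5 FPM, and Ibsp and Sost had no read, while Spp1 alone made up most of a sum of 778 to 3645 FPM.

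Divided by the length of annotated exon, the 10 genes covered a wide range, with Runx2, Cebpb and Runx1 the most abundant in control GM. In control GM, Runx2 stood at 9.73 ± 1.55 FPM per kb (SD, n = 3) and Cebpb at 8.59 ± 0.853, with overlapping SD ranges. Runx1 followed at 5.42 ± 0.961 FPM per kb and Pparg at 2.38 ± 0.577. Cebpd was at 0.804 ± 0.0622 FPM per kb. Fabp4 at 0.294 ± 0.132 FPM per kb and Cebpa at 0.171 ± 0.0936 did not differ beyond their spread. Sp7 lay at 0.0187 FPM per kb, and Lpl and Alpl had no reads. So Cebpd, an early factor, lay below the later factor Pparg on these annotated lengths, 3746 bases for Cebpd and 2953 bases for Pparg. No read of the enzyme genes Lpl and Alpl was found in control GM. In MUNC spliced GM, Cebpa stood higher in this order, at 4.26 ± 1.07 FPM per kb, beside Pparg at 3.73 ± 0.778. In MUNC genomic GM, Lpl stood at 1.41 ± 0.226 FPM per kb, within the spread of Pparg at 1.46 ± 0.311 and Cebpa at 1.17 ± 0.649. These lengths are the union of all annotated exons, so levels are understated where the main transcript is shorter. The order of the genes, including Cebpd and Pparg, could differ with the lengths of the main transcripts.

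**Figure D1:**
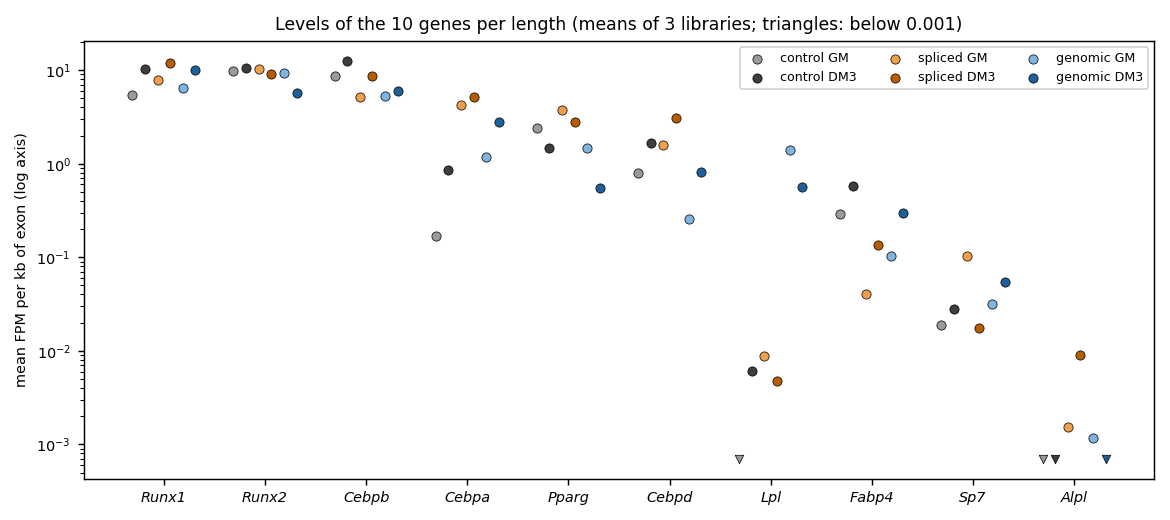
Mean level of each of the 10 genes in FPM per kb of annotated exon, on a log axis, with 1 point for each of the 6 groups (n = 3 libraries); triangles mark means below 0.001. Runx1, Runx2 and Cebpb are the 3 highest in every group, Alpl has few or no reads, and Lpl is high only in the MUNC genomic groups.

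Differences were tested with limma on log2(FPM + 1) over 13869 genes, with p-values adjusted by the Benjamini-Hochberg method over all of them; a change was called at an adjusted p under 0.05. Between GM and DM3, 5 of the 8 tested genes changed in control cells, 4 higher and 1 lower in DM3, where 58.2% of all genes changed (29.6% higher and 28.6% lower). In MUNC spliced cells 3 changed, all higher in DM3, where 35.6% of all genes changed (17.2% higher and 18.4% lower). In MUNC genomic cells 7 changed, 4 higher and 3 lower, where 51.4% of all genes changed (26.3% higher and 25.1% lower). Relative to control cells in GM, 6 genes differed in MUNC spliced cells, 4 higher and 2 lower, beside 35.5% of all genes (18.2% higher and 17.3% lower). In MUNC genomic GM cells 5 differed, 2 higher and 3 lower, beside 26.8% of all genes (12.2% higher and 14.5% lower). Relative to control cells in DM3, 4 genes differed in MUNC spliced cells, 3 higher and 1 lower, beside 43.3% of all genes (22.3% higher and 21% lower). In MUNC genomic DM3 cells 6 differed, 2 higher and 4 lower, beside 40.3% of all genes (19.3% higher and 20.9% lower). Between the MUNC lines, 3 genes were higher and 1 was lower in MUNC spliced cells in GM, beside 35.8% of all genes (19.9% higher and 16% lower), and 4 were higher and 1 lower in DM3, beside 44.2% (23.4% higher and 20.8% lower). So many genes of every kind changed in these comparisons that the counts alone single out nothing about the fat and bone genes. The median log2 change of the 8 genes was 0.54 between control DM3 and GM, beside 0.02 over all genes. It was −0.69 between MUNC genomic and control cells in DM3, beside −0.01 over all genes, and 0.11 for MUNC spliced cells there, beside 0.01. Both MUNC lines were compared with the same control libraries.

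**Figure D2:**
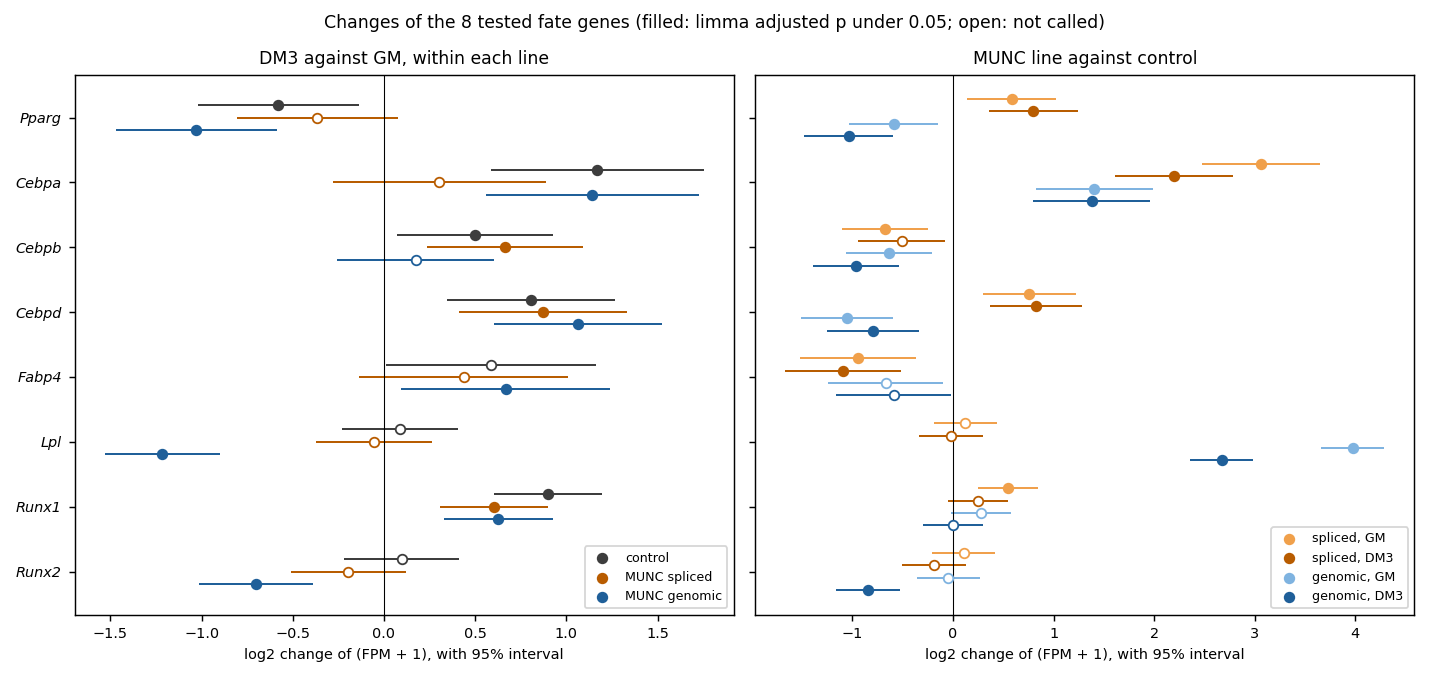
Log2 change (limma, on log2(FPM + 1)) of the 8 tested genes with its 95% interval, for DM3 against GM in each line on the left and for each MUNC line against control on the right; filled points passed an adjusted p under 0.05. Cebpa lies to the right of 0 in all 4 comparisons with control, Lpl is far to the right only in MUNC genomic cells, and Cebpd and Pparg lie on opposite sides of 0 in the MUNC lines.

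Cebpb, one of the early C/EBP factors, was lower in both MUNC lines than in control cells in GM and rose in DM3 in control and MUNC spliced cells. Its level was 12.7, 14.3 and 11.8 FPM in the 3 control GM libraries, 7.07, 7.09 and 9.02 FPM in MUNC spliced GM and 6.87, 7.78 and 9.24 FPM in MUNC genomic GM. The DM3 levels were 16.2, 15.8 and 25.0 FPM in control, 9.74, 12.0 and 17.6 FPM in MUNC spliced and 9.81, 7.77 and 9.70 FPM in MUNC genomic cells. Every MUNC library in GM lay below every control library there, and in DM3 this held for MUNC genomic cells, while the highest MUNC spliced library overlapped the control libraries. In GM the log2 difference from control was −0.68 in MUNC spliced (SE 0.20, limma adjusted p = 0.0165) and −0.64 in MUNC genomic cells (adjusted p = 0.0277). In DM3 it was −0.96 in MUNC genomic cells (adjusted p = 0.00120). In MUNC spliced cells in DM3 the difference of −0.51 missed the limma threshold (adjusted p = 0.0514). It passed in 4 of 10 alternative ways of processing, among them a replicate block (adjusted p = 0.0159) and DESeq2 (adjusted p = 0.0478). It also passed without control DM3 replicate 1 (−0.60), control DM3 replicate 2 (−0.62) or MUNC spliced DM3 replicate 3 (−0.73). The change from GM to DM3 was 0.50 in control (limma adjusted p = 0.0446) and 0.66 in MUNC spliced cells (adjusted p = 0.0182), and in MUNC genomic cells a change of 0.17 did not pass (adjusted p = 0.503). Several of these calls were near the threshold and were lost when any of several libraries was left out, in part with little change in size. The control change was lost without control GM replicate 1 (0.49) or 3 (0.44) or control DM3 replicate 3 (0.29). It was also lost in 3 of 10 alternatives, among them edgeR (adjusted p = 0.0538). The MUNC spliced change was lost without MUNC spliced GM replicate 1 (0.61) or DM3 replicate 3 (0.45), and in a limma fit of only those 2 groups (adjusted p = 0.0797). In GM, the MUNC spliced difference was lost without control replicate 2 (−0.61) or MUNC spliced replicate 1 (−0.62) or 2 (−0.63). The MUNC genomic one was lost without control replicate 1 (−0.65) or 2 (−0.57) or MUNC genomic replicate 1 (−0.55) or 2 (−0.63). It was also lost with no filter (limma adjusted p = 0.0573) and under quantile normalization (adjusted p = 0.0705).

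Cebpd, the other early factor, was higher than control in MUNC spliced cells and lower than control in MUNC genomic cells, in both media, and rose in DM3 in all 3 kinds of cell. In GM its level was 2.94, 3.27 and 2.83 FPM in control, 7.27, 4.25 and 6.19 FPM in MUNC spliced and 0.544, 1.22 and 1.09 FPM in MUNC genomic cells. In DM3 it was 4.15, 7.14 and 7.20 FPM in control, 10.7, 15.2 and 9.11 FPM in MUNC spliced and 3.21, 2.82 and 3.08 FPM in MUNC genomic cells. The 3 kinds of cell did not overlap in either medium, and within each kind every DM3 library exceeded every GM library. Relative to control, the log2 difference in MUNC spliced cells was 0.76 in GM (SE 0.22, limma adjusted p = 0.0125) and 0.83 in DM3 (adjusted p = 0.00573), folds of 1.96 and 1.89. In MUNC genomic cells it was −1.06 in GM (adjusted p = 0.00169) and −0.80 in DM3 (adjusted p = 0.00763), where control means were 3.17 and 2.03 times higher. Cebpd thus separated the MUNC lines from each other, by 1.82 in GM (limma adjusted p = 6.56e-06) and 1.62 in DM3 (adjusted p = 1.39e-05). Its rise from GM to DM3 was 0.81 in control, 0.87 in MUNC spliced and 1.06 in MUNC genomic cells (limma adjusted p = 0.00458, 0.00542 and 0.000698). The MUNC spliced difference in GM was lost under quantile normalization (0.50, adjusted p = 0.119) and without MUNC spliced GM replicate 1 (0.62). Exons of Cebpd and Cebpb overlap those of genes on the opposite strand, Spidr and Tmem189, over 562 and 312 bases, and whether counting used the strand is not given in the sources used here.

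Pparg, the nuclear receptor that commits cells to the fat fate, was lower in MUNC genomic cells than in control cells and higher in MUNC spliced cells, most clearly in DM3. In DM3 its level was 3.74, 5.09 and 4.13 FPM in control, 8.30, 8.14 and 8.17 FPM in MUNC spliced and 0.930, 1.84 and 2.13 FPM in MUNC genomic cells. In GM it was 8.60, 5.22 and 7.27 FPM in control, 12.6, 8.38 and 12.1 FPM in MUNC spliced and 4.80, 3.26 and 4.89 FPM in MUNC genomic cells. In DM3 the 3 kinds of cell were fully separate, whereas in GM the highest control library exceeded the lowest MUNC spliced library. In DM3 the log2 difference from control was 0.80 in MUNC spliced (SE 0.21, limma adjusted p = 0.00556) and −1.04 in MUNC genomic cells (adjusted p = 0.000814). The MUNC spliced mean was 1.90 times the control mean there, and the control mean was 2.65 times the MUNC genomic mean. Between the MUNC lines the difference was 1.84 in DM3 (limma adjusted p = 2.39e-06) and 1.17 in GM (adjusted p = 0.000358). In GM the differences from control were 0.58 in MUNC spliced (limma adjusted p = 0.0384) and −0.59 in MUNC genomic cells (adjusted p = 0.0466), and both calls were fragile. The MUNC spliced call was lost in 6 of 10 alternative ways of processing, among them edgeR (adjusted p = 0.0882). It was also lost without control GM replicate 2 (0.41) or 3 (0.62) or MUNC spliced GM replicate 1 (0.49) or 3 (0.51). The MUNC genomic call was lost in 7 of the 10 alternatives, among them edgeR (adjusted p = 0.0604). It was also lost without control GM replicate 1 (−0.45) or 3 (−0.56) or MUNC genomic GM replicate 1 (−0.66) or 2 (−0.44). In the authors' deposited table the MUNC genomic difference in GM was −0.66, with an adjusted p of 0.0559.

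From GM to DM3, Pparg fell by 1.03 in log2 units in MUNC genomic cells (limma adjusted p = 0.000670), with a GM mean 2.64 times the DM3 mean and no overlap. It fell by 0.58 in control cells (limma adjusted p = 0.0254), again with no overlap between the libraries. That control call was lost without control GM replicate 1 (−0.44) or 3 (−0.55) or control DM3 replicate 1 (−0.50) or 3 (−0.56). The MUNC spliced change was −0.37 and did not pass (limma adjusted p = 0.184). Where Pparg was lower in DM3, in control and MUNC genomic cells, Cebpd and Cebpa were both higher there.

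Cebpa, the later C/EBP factor of mature adipocytes, was higher in both MUNC lines than in control cells in both media. In GM its level was 0.632, 0.549 and 0.169 FPM in control, 13.3, 12.4 and 8.01 FPM in MUNC spliced and 4.41, 3.70 and 1.16 FPM in MUNC genomic cells. The DM3 levels were 1.96, 1.76 and 3.11 FPM in control, 13.6, 14.4 and 13.4 FPM in MUNC spliced and 8.23, 6.55 and 7.45 FPM in MUNC genomic cells. In both media every MUNC spliced library lay above every MUNC genomic library, which lay above every control library. The MUNC spliced mean was 25.0 times the control mean in GM and 6.06 times in DM3, with log2(FPM + 1) differences of 3.06 (SE 0.28, limma adjusted p = 3.76e-07) and 2.20 (adjusted p = 9.92e-06). The MUNC genomic mean was 6.86 times the control mean in GM and 3.26 times in DM3, with differences of 1.40 (limma adjusted p = 0.00119) and 1.38 (adjusted p = 0.000785). Thus Cebpa was raised in both lines while Pparg was raised in one and lowered in the other. The MUNC lines differed in Cebpa by 1.66 in GM (limma adjusted p = 0.000194) and by 0.82 in DM3 (adjusted p = 0.0240). The DM3 difference was lost with edgeR (adjusted p = 0.0768) and DESeq2 (adjusted p = 0.0574), and without MUNC spliced DM3 replicate 2 (0.79) or MUNC genomic DM3 replicate 2 (0.74) or 3 (0.82).

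Cebpa rose from GM to DM3 in control cells by 1.17 (limma adjusted p = 0.00178), with means that differed 5.06 times, and in MUNC genomic cells by 1.14 (adjusted p = 0.00256). In MUNC spliced cells, already high in GM, the change was 0.30 and did not pass (limma adjusted p = 0.414). Whether differentiation acted differently in MUNC spliced and control cells depended on the scale. The difference between the 2 changes was −0.87 on log2(FPM + 1) and was not called by limma (adjusted p = 0.142). It was −1.99 with edgeR (adjusted p = 0.0404) and −2.03 with DESeq2 (adjusted p = 0.00682) on recovered reads, which do not dampen low values. The summed myogenic markers were also higher in both MUNC lines than in control cells in both media, but their members did not move together. Of 8 tested, 4 were higher and 0 lower in MUNC spliced GM, 6 and 0 in MUNC spliced DM3, and 6 and 1 in MUNC genomic DM3. In MUNC genomic GM 2 were higher and 2 lower (median −0.02, beside −0.03 over all genes), and the sum there came mainly from Des, at 476 ± 145 FPM against 24.2 ± 8.37 FPM in control (SD, n = 3). The part of these markers in the Cebpa result was not tested.

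Fabp4, an adipocyte fatty acid carrier that the fat factors switch on, was lower in MUNC spliced than in control cells, the opposite of Pparg and Cebpa. In GM its level was 1.95, 1.24 and 0.768 FPM in control, 0.202, 0.275 and 0.0721 FPM in MUNC spliced and 0.658, 0.675 and 0.0420 FPM in MUNC genomic cells. In DM3 it was 3.30, 1.18 and 3.20 FPM in control, 0.626, 0.453 and 0.723 FPM in MUNC spliced and 2.22, 0.979 and 0.820 FPM in MUNC genomic cells. In both media every MUNC spliced library lay below every control library, and 1 MUNC genomic GM library rested on 2 reads. The control mean was 7.20 times the MUNC spliced mean in GM and 4.27 times in DM3. The MUNC spliced GM libraries held only 8, 15 and 4 reads, so the fold in GM is imprecise. On log2(FPM + 1) the MUNC spliced difference from control was −0.94 in GM (SE 0.27, limma adjusted p = 0.0130), lost without control GM replicate 1 (−0.75). In DM3 it was −1.09 (limma adjusted p = 0.00391). In MUNC genomic cells the differences from control did not pass with limma: −0.67 in GM (adjusted p = 0.0786, or 0.0395 with a replicate block) and −0.59 in DM3 (adjusted p = 0.0944). The DM3 difference passed without control DM3 replicate 2 (−0.91) or MUNC genomic DM3 replicate 1 (−0.84).

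Whether the change of Fabp4 from GM to DM3 was called varied with the library left out or with the tool in all 3 kinds of cell. In MUNC genomic cells Fabp4 rose by 0.67 from GM to DM3 (limma adjusted p = 0.0496). That call was lost in 6 of 10 alternative ways of processing, among them edgeR (adjusted p = 0.0665). It was also lost without MUNC genomic GM replicate 1 (0.78) or 3 (0.44) or DM3 replicate 1 (0.41) or 2 (0.76). In control cells the change of 0.59 did not pass (limma adjusted p = 0.0738), but did with a replicate block (adjusted p = 0.0430) and without control GM replicate 1 (0.78) or control DM3 replicate 2 (0.91). For MUNC spliced cells a change of 0.44 did not pass with limma (adjusted p = 0.221) and did with DESeq2 on recovered reads (1.75, adjusted p = 0.0377).

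Lpl, the lipoprotein lipase, was essentially silent in control and MUNC spliced cells and present in all MUNC genomic libraries. In MUNC genomic cells its level was 17.3, 14.6 and 12.6 FPM in GM and 7.95, 5.24 and 4.53 FPM in DM3. Control GM libraries had 0 reads of Lpl, and control DM3 libraries had 5, 1 and 4 reads. MUNC spliced libraries had 8, 3 and 1 reads in GM and 5, 2 and 1 reads in DM3. The MUNC genomic libraries thus stood apart from every other library by far more than the spread within a group. In GM their mean was at least 295-fold higher than control, taking 3 reads per library as the floor. In DM3 the MUNC genomic mean was 93.6 times the control mean, which rested on 10 reads in all. The log2(FPM + 1) differences from control were 3.97 in GM (SE 0.15, limma adjusted p = 4.13e-12) and 2.67 in DM3 (adjusted p = 5.15e-10).

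Within MUNC genomic cells, the log2 level of Lpl fell by 1.22 from GM to DM3 (limma adjusted p = 8.30e-06), where the GM mean was 2.51 times the DM3 mean. The change differed from that in control cells by −1.30 (limma adjusted p = 0.000897). Control GM had no Lpl reads, so no fall could be seen in control cells. This interaction largely restates the fall in MUNC genomic cells. Among the 8 genes, 2 interactions were called for MUNC genomic cells, those of Lpl and Runx2, both lower, beside 8.81% of all genes (3.56% higher and 5.25% lower). For MUNC spliced cells 0 of the 8 interactions were called by limma, against 14.4% of all genes, with log2 values from −0.87 to 0.21. Neither the control change of 0.09 (limma adjusted p = 0.642) nor the MUNC spliced difference from control in GM of 0.12 (adjusted p = 0.554) passed. Both were called by edgeR and DESeq2 on the few recovered reads.

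**Figure D3:**
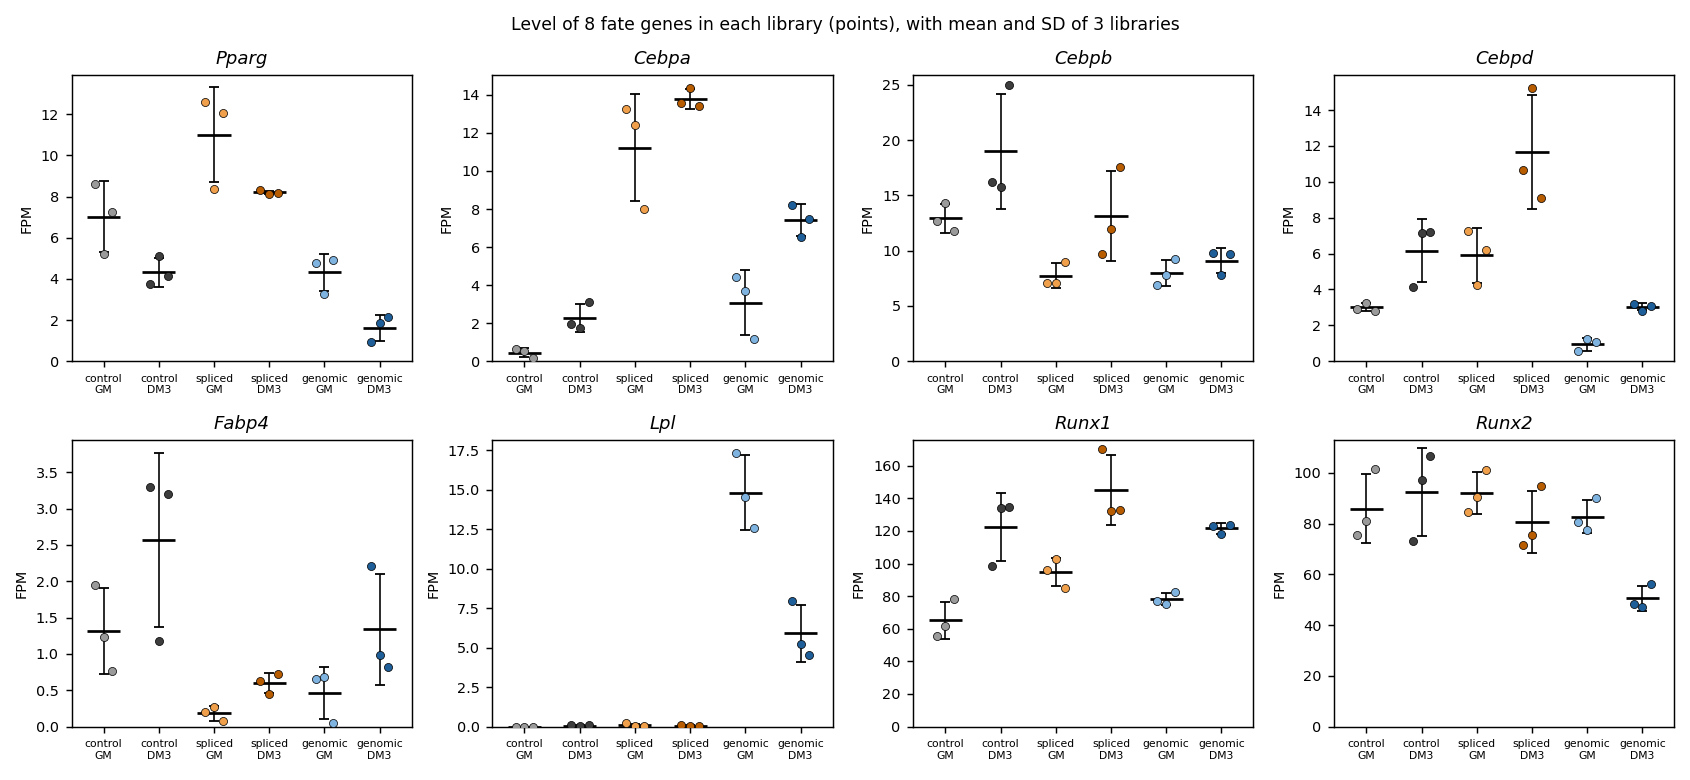
FPM in each library for the 8 tested genes, 1 panel a gene, with the 6 groups on the x axis, a point per library and bars for the mean and SD (n = 3). Lpl is near 0 outside the MUNC genomic groups, Cebpa is higher in both MUNC lines than in control, and Runx2 is lowest in MUNC genomic DM3.

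Lpl is made by adipocytes, muscle and other tissue cells and acts on the surface of endothelial cells, and the genes that most resembled it over the 18 libraries included endothelial ones. Among 11028 genes ranked by Pearson correlation of log2(FPM + 1), the closest were Igfbp2 (r = 0.996), Cdh5 (0.990) and Podxl (0.985); these values are a description, since all come from the same libraries and groups. Igfbp2, an insulin-like growth factor binding protein, averaged 67.4 ± 12.8 FPM in GM and 18.9 ± 7.92 FPM in DM3 in MUNC genomic cells (SD, n = 3), and its mean was at most 0.183 FPM in the other groups. Podxl, a surface sialomucin, averaged 19.3 ± 3.77 FPM and 4.05 ± 0.826 FPM in the same 2 groups. Cdh5, the endothelial cadherin, averaged 7.14 ± 0.125 FPM and 4.20 ± 0.682 FPM there. All 3 shared with Lpl the restriction to MUNC genomic libraries and the lower level in DM3. The summed level of 4 endothelial markers was 7.14 to 7.62 FPM in MUNC genomic GM, 0.256 to 0.743 FPM in control GM and 0.880 to 1.72 FPM in MUNC spliced GM, and 4.01 to 5.28, 0.250 to 0.612 and 1.05 to 1.59 FPM in DM3 in the same order. Cdh5 carried nearly all of it in MUNC genomic cells, where Pecam1 was at 0.0982 ± 0.0398 FPM and Kdr at 0.00700 ± 0.0121 FPM in GM. In MUNC spliced GM, Cdh5 averaged 0.030 ± 0.038 FPM, so other markers of the list made up most of the sum there. The 2 markers abundant enough to test went opposite ways between the MUNC lines in both media. Cdh5 was called higher in MUNC genomic cells, and the other tested marker was called higher in MUNC spliced cells. The part of these markers in the Lpl result was not tested.

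**Figure D4:**
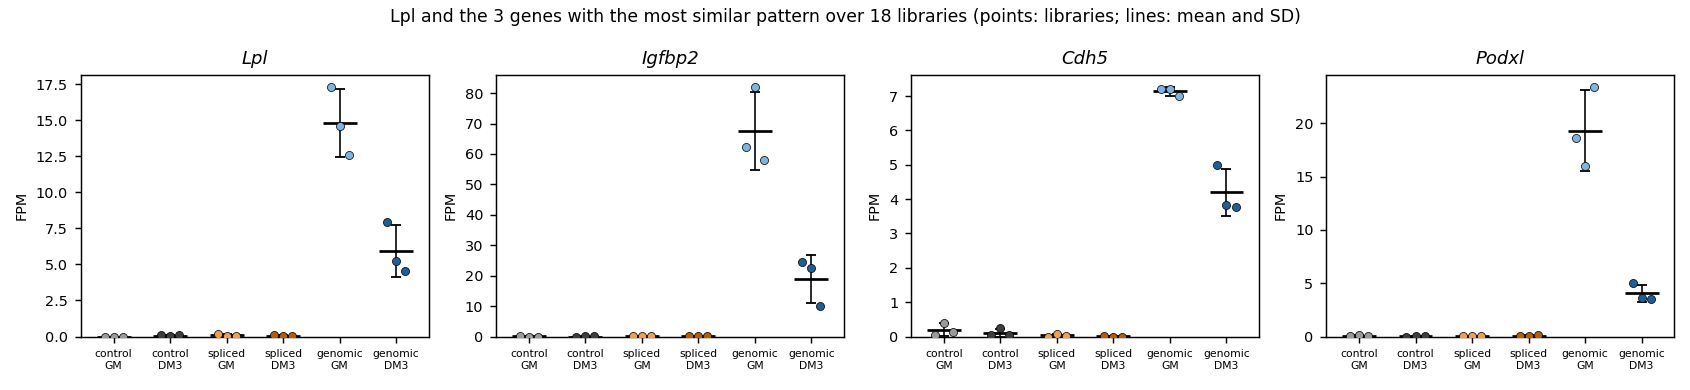
FPM of Lpl and of the 3 genes most correlated with it, Igfbp2, Cdh5 and Podxl, in each of the 18 libraries, grouped by line and medium. All 4 are near 0 in the control and MUNC spliced libraries and lower in MUNC genomic DM3 than in MUNC genomic GM.

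Runx1 was abundant in every library and rose with differentiation in all 3 kinds of cell. In GM its level was 55.7, 61.7 and 78.0 FPM in control, 96.2, 103 and 85.3 FPM in MUNC spliced and 77.2, 75.4 and 82.5 FPM in MUNC genomic cells. The DM3 levels were 98.4, 134 and 135 FPM in control, 170, 132 and 133 FPM in MUNC spliced and 123, 118 and 124 FPM in MUNC genomic cells. Within each kind every DM3 library exceeded every GM library. The log2 rise was 0.90 in control (SE 0.14, limma adjusted p = 5.21e-05), 0.60 in MUNC spliced (adjusted p = 0.00363) and 0.63 in MUNC genomic cells (adjusted p = 0.00149). In GM, Runx1 was higher in MUNC spliced than in control cells, by 0.54 (limma adjusted p = 0.00700), with no overlap. In MUNC genomic GM the difference from control of 0.28 did not pass (limma adjusted p = 0.165), though it did without control GM replicate 3 (0.41). In DM3 the differences from control were 0.25 in MUNC spliced (limma adjusted p = 0.168) and 0.00 in MUNC genomic cells (adjusted p = 0.988).

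Runx2, the first factor of the bone pathway, was at a like level in 5 of the 6 groups and lower in MUNC genomic DM3. In GM its level was 75.4, 81.0 and 101 FPM in control, 84.6, 90.5 and 101 FPM in MUNC spliced and 80.8, 77.4 and 90.1 FPM in MUNC genomic cells. In DM3 it was 73.1, 97.3 and 107 FPM in control, 71.7, 75.5 and 94.7 FPM in MUNC spliced and 48.3, 47.2 and 56.3 FPM in MUNC genomic cells. The 3 MUNC genomic DM3 libraries lay below all 15 others, which overlapped across groups. MUNC genomic cells in DM3 differed from control by a log2 change of −0.84 (SE 0.15, limma adjusted p = 0.000257) and their level fell by 0.70 from GM (adjusted p = 0.000966). The control mean was 1.83 times the MUNC genomic mean in DM3. MUNC spliced cells in DM3 exceeded MUNC genomic cells by 0.66 (limma adjusted p = 0.00191). In control cells the change from GM to DM3 was 0.10 (limma adjusted p = 0.600) and in MUNC spliced cells −0.20 (adjusted p = 0.322). The change in MUNC genomic cells differed from that in control cells by −0.80 (limma adjusted p = 0.0249). This interaction was lost without control GM replicate 1 (−0.71), MUNC genomic GM replicate 3 (−0.74), control DM3 replicate 2 (−0.75) or 3 (−0.69), or MUNC genomic DM3 replicate 1 (−0.77) or 2 (−0.75). In GM the differences from control did not pass with limma: 0.11 in MUNC spliced (adjusted p = 0.615) and −0.05 in MUNC genomic cells (adjusted p = 0.872), the second turning to 0.02 with equal sums per library. Exons of Runx2 overlap the antisense gene Runx2os1 over 519 bases.

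Sp7 and Alpl, which follow Runx2 in bone, were at or near the limit of detection. Sp7 had 20, 17 and 13 reads in the MUNC spliced GM libraries, or 0.505, 0.312 and 0.234 FPM, and 1 to 14 reads in each of the other 15. In the authors' deposited table Sp7 was higher in MUNC spliced than in control GM, with a log2 fold change of 2.48 and an adjusted p of 0.0257. Alpl had no read in any control library or in MUNC genomic DM3. It had 0, 1 and 0 reads in MUNC spliced GM, 1, 2 and 3 reads in MUNC spliced DM3 and 1, 0 and 0 reads in MUNC genomic GM. The abundance of Runx2 was therefore accompanied by very few Sp7 and Alpl reads in all 6 groups.

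Wider lists of fat and bone genes, none of which held any of the 10 genes, showed how far the rest of each program was present. Of 28 genes of the adipocyte program 17 were abundant enough to test, and of 25 genes of the osteoblast program 16 were (1 was not analysed here). In control cells, 6 of the 17 adipocyte genes rose and 3 fell from GM to DM3, where 58.2% of all genes were called, so the count does not set the list apart. The lipid droplet coat gene Plin4 rose by 1.96 (limma adjusted p = 0.000224), from 4.68 ± 1.91 to 20.5 ± 4.32 FPM (SD, n = 3). The lipase gene Lipe rose by 1.40 (limma adjusted p = 2.36e-05), from 2.69 ± 0.521 to 8.73 ± 1.07 FPM. Both are also expressed in skeletal muscle. In MUNC spliced cells 0 of the 17 rose and 1 fell between the media, beside calls for 35.6% of all genes, and in MUNC genomic cells 4 rose and 5 fell, beside 51.4%. The MUNC spliced count ranged from 0 to 5 when 1 library was left out, with 5 calls without MUNC spliced GM replicate 2 or DM3 replicate 1. In DM3, 1 adipocyte gene was higher and 6 were lower in MUNC spliced than in control cells (median −0.34, beside 0.01 over all genes), where 22.3% of all genes were higher and 21% lower. In MUNC genomic DM3 cells 2 were higher and 6 lower (median −0.36, beside −0.01), where 19.3% of all genes were higher and 20.9% lower. Plin4 was lower in both, by −1.59 in MUNC spliced and −1.45 in MUNC genomic cells. Fasn, the fatty acid synthase, was lower in MUNC genomic DM3 cells by −1.12. In GM, Plin4 was instead higher in MUNC genomic than in control cells, by 1.16 (limma adjusted p = 0.0243), with overlapping libraries.

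Of 13 tested regulators of adipogenesis, 7 were higher and 1 was lower in MUNC spliced than in control DM3 cells, beside 22.3% higher and 21% lower among all genes, with a median of 0.29 beside 0.01. In MUNC genomic DM3 cells 1 was higher and 4 were lower, beside 19.3% and 20.9% of all genes, with a median of −0.17 beside −0.01. Klf4, a factor that acts with the early C/EBP genes, exceeded control in MUNC spliced cells by 1.61 in GM and 1.76 in DM3, and its GM mean was 144 ± 30.0 FPM against 45.9 ± 3.88 FPM in control (SD, n = 3). Ppargc1a, a partner of Pparg that drives mitochondrial genes in muscle and brown fat, went the other way. It rose by 2.97 from GM to DM3 in control cells (limma adjusted p = 9.02e-11), to 12.1 ± 1.71 FPM. It was at 0.165 ± 0.0551 FPM in MUNC spliced DM3 and had no reads in MUNC genomic DM3, where the log2 differences from control were −3.48 and −3.70. Of 12 tested inhibitors of adipogenesis, 1 was higher and 3 were lower in MUNC spliced DM3 cells, and 1 was higher and 5 were lower in MUNC genomic DM3 cells. In either direction 43.3% and 40.3% of all genes were called in these comparisons, so the totals called are near the background. By direction, 22.3% of all genes were higher and 21% lower in MUNC spliced DM3 cells, and 19.3% and 20.9% in MUNC genomic DM3 cells. The median of the inhibitors was −0.26 in MUNC spliced cells, beside 0.01 over all genes, and −0.36 in MUNC genomic cells, beside −0.01.

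Genes of the osteoblast program were more often higher than lower in MUNC spliced cells and were lower or not called in MUNC genomic DM3 cells. From GM to DM3 in control cells 8 of 16 tested genes rose and 2 fell, beside 29.6% and 28.6% of all genes, with a median of 0.50 beside 0.02 over all genes. Relative to control, 7 were higher and 3 lower in MUNC spliced GM cells (median 0.60, beside −0.02), where 18.2% of all genes were higher and 17.3% lower, and 6 were higher and 3 lower in MUNC spliced DM3 cells (median 0.51, beside 0.01), where these shares were 22.3% and 21%. In MUNC genomic DM3 cells 0 were higher and 9 were lower (median −0.69, beside −0.01), where 19.3% of all genes were higher and 20.9% lower. In MUNC genomic GM cells 1 was higher and 4 were lower, 5 calls that became 3 without control GM replicate 2 and 9 with a replicate block. Omd, a proteoglycan of bone matrix, reached 127 ± 21.9 FPM in MUNC spliced DM3 against 2.81 ± 0.575 FPM in control DM3 (SD, n = 3), a log2 difference of 5.07 (limma adjusted p = 9.62e-10). Phex, an osteocyte peptidase, was at 216 ± 33.7 FPM in control DM3 and at 6.09 ± 0.830 and 11.1 ± 2.06 FPM in MUNC spliced and MUNC genomic DM3, differences of −4.93 and −4.17. In DM3 libraries Spp1, which encodes osteopontin, averaged 3246 ± 129 FPM in control against 1059 ± 80.3 FPM in MUNC genomic cells, a difference of −1.62. Single genes of the list thus moved in opposite directions in MUNC spliced cells. Of 5 markers of fibro-adipogenic progenitors, the summed level was 1548 to 1940 FPM in control DM3, mostly from Ly6a. The sum was 1077 to 1459 FPM in MUNC spliced DM3 and 82.9 to 92.9 FPM in MUNC genomic DM3. Of the 4 tested, only Ly6a was lower in MUNC genomic than in control DM3, at 32.9 ± 4.57 against 1740 ± 196 FPM, while Pdgfra, Cd34 and Pi16 were higher (median of the 4 1.30, beside −0.01 over all genes), and Dpp4 was too low to test. The part of these markers in the osteoblast counts was not tested.

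**Figure D5:**
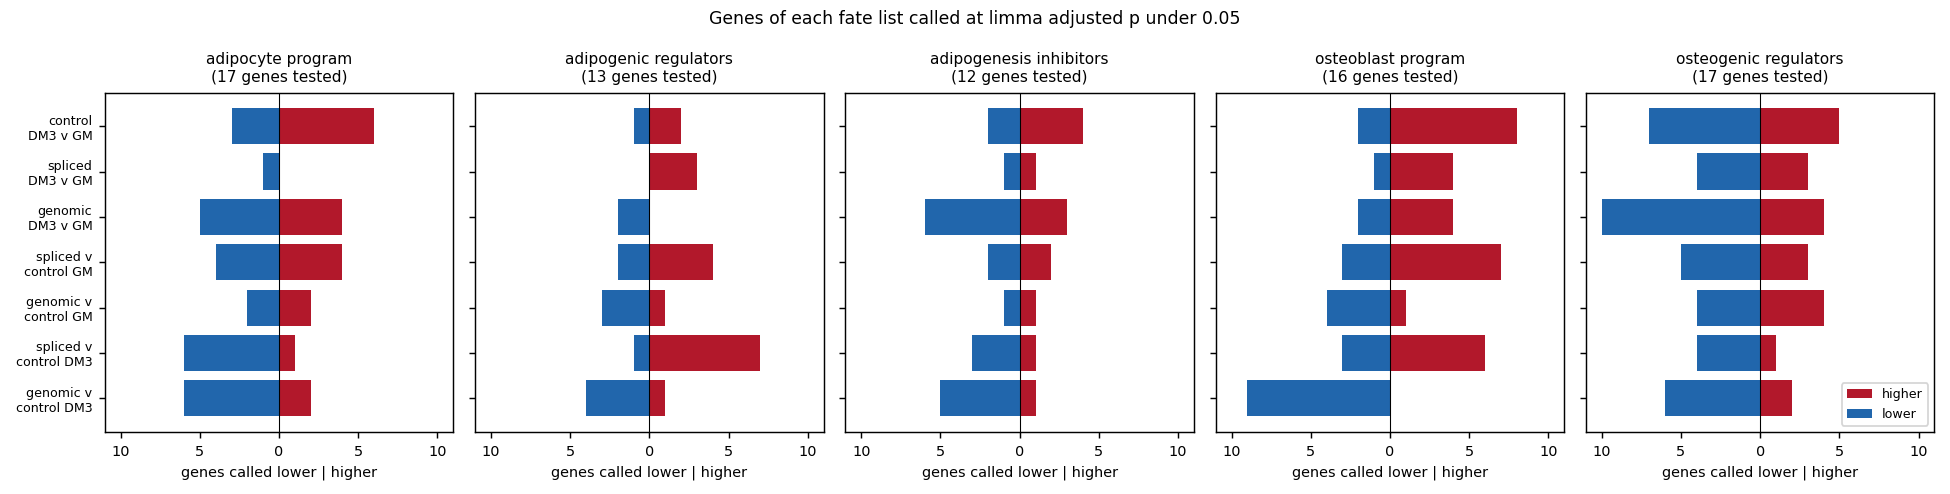
Number of genes called higher (red bars, right of 0) and lower (blue bars, left of 0) by limma in 5 gene lists, for DM3 against GM in each line and each MUNC line against control. The osteoblast program has 0 higher and 9 lower calls in MUNC genomic DM3 cells and 6 higher and 3 lower calls in MUNC spliced DM3 cells.

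Of 17 tested regulators of bone formation, 4 rose and 10 fell in MUNC genomic cells from GM to DM3, beside 26.3% and 25.1% of all genes, with a median of −0.40 beside 0.02. In control cells 5 rose and 7 fell in the same step, beside 29.6% and 28.6% of all genes. The paralogue Runx3 fell by 1.60 in MUNC genomic cells. Its level also fell by 0.84 in MUNC spliced cells (limma adjusted p = 0.0133), in which the change of Runx2 was not called; that fall was lost in a fit of only those 2 groups (adjusted p = 0.0566) and without MUNC spliced GM replicate 3 (−0.68) or DM3 replicate 2 (−0.73) or 3 (−0.68). Bmp4, a ligand that turns C2C12 cells toward bone, was far more abundant in MUNC spliced cells. Its level was 0.997 ± 0.368 FPM in control GM and 26.9 ± 13.6 FPM in MUNC spliced GM, and 1.70 ± 0.426 and 109 ± 23.1 FPM in DM3 (SD, n = 3). The log2 differences were 3.71 in GM (limma adjusted p = 1.37e-08) and 5.34 in DM3 (adjusted p = 1.63e-10). Dlx3, a homeobox factor of bone and skin, was lower in DM3 than in control by −2.49 in MUNC spliced and −2.07 in MUNC genomic cells.

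Among paralogues and partners of the 10 genes, Fabp5, the epidermal fatty acid carrier, fell by 2.46 in control cells from GM to DM3 (limma adjusted p = 7.18e-07), from 69.3 ± 7.78 to 11.8 ± 1.59 FPM (SD, n = 3). It fell by 1.37 in MUNC spliced cells and fell by 2.01 in MUNC genomic cells. Angptl4, a secreted inhibitor of the Lpl enzyme, rose by 2.38 from GM to DM3 in MUNC genomic cells, to 141 ± 37.8 FPM against 29.5 ± 10.6 FPM in control DM3, a difference of 2.24. In the cells with Lpl transcript, Lpl was therefore lower and Angptl4 higher in DM3 than in GM. Enpp1, whose product makes the mineralization inhibitor pyrophosphate, was higher than control in GM by 2.38 in MUNC spliced and 1.47 in MUNC genomic cells. It rose by 2.29 from GM to DM3 in control cells, from 22.4 ± 2.16 to 113.6 ± 12.7 FPM, and in DM3 it was lower in MUNC genomic cells than in control by −0.82 (limma adjusted p = 0.0293). That last call was lost without a filter (adjusted p = 0.0644), under quantile normalization (−0.75), and without control DM3 replicate 2 (−0.82) or 3 (−0.74) or MUNC genomic DM3 replicate 1 (−0.79) or 3 (−0.76).

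The genes most like the other 7 tested genes over the 18 libraries were of mixed kinds. Cebpa was closest to RP24-62C22.1 (r = 0.979) and to Ablim1 (0.965), which encodes an actin-binding protein, and Slc39a11 (0.962). Pparg was closest to Rab32 (0.963), the gene of a small GTPase of vesicle traffic, at 64.8 ± 16.8 FPM in MUNC spliced GM, 31.3 ± 6.61 FPM in control GM and 17.7 ± 4.46 FPM in MUNC genomic GM (SD, n = 3). Cebpd was closest to Lrpap1 (0.965), Runx2 to the cadherin gene Fat1 (0.941), Runx1 to Synpo2l (0.931), Cebpb to Scpep1 (0.902) and Fabp4 to Ier3 (0.877). The 10 genes themselves were left out of this ranking, so it does not show how much they resembled each other.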

How the data were processed

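Expression in 18 libraries was taken from a table that the authors deposited, which lists 35275 genes as a normalized signal in FPM. One label names the unit FPKM. Within a library, however, all values were whole multiples of the same step, so whole reads were recovered for 100% of values to within 0.05 of a read (largest deviation 0.0349), and gene length had not been divided out. STAR, HTSeq, DESeq2 and the build mm10 are named in the submitters' processing notes, the tools without versions. A further 5 deposited tables hold the authors' comparisons, with log2 fold changes, p-values and, not used here, test statistics (scores) and mean normalized signal, per the file headers. Sample titles gave the groups, since a source label contradicted them for 9 samples.

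A gene was tested if 3 or more libraries reached 0.5 FPM (13869 genes), on log2(FPM + 1), which understates changes of low genes. limma 3.58.1 in R 4.3.3 was used with 1 fit of 6 group means, 12 residual degrees of freedom, a mean-variance trend and two-sided Benjamini-Hochberg adjusted p-values over all 13869 genes, in 11 comparisons. Folds are ratios of group means in FPM. The method was tested on simulated data with independent libraries and the same dispersion for every gene. That test therefore does not cover the correlation of same-numbered libraries described below. Alternatives were pseudocounts of 0.5 and 0.1, no filter, a filter at 1 FPM, equal sums per library, quantile normalization, a replicate block, only the groups compared, edgeR 4.0.16 and DESeq2 1.42.0 on recovered reads, and leaving out each library. On recovered reads edgeR called 777 to 8034 genes per comparison and DESeq2 called 1274 to 8396.

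Replicate numbers in the titles were checked for pairing by the correlation of same-numbered libraries' deviations from their group means. Every pair exceeded 0.1 for control DM3 against GM (0.203 to 0.411), for each MUNC line against control in GM (0.494 to 0.726) and in DM3 (0.171 to 0.448) and between the MUNC lines in GM (0.456 to 0.727). This did not hold for MUNC spliced or MUNC genomic DM3 against GM, for the MUNC lines in DM3 or for the interactions.

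The genes, lists and tests were chosen with earlier results of these data known. All 10 genes were described. From each list up to 3 called genes per comparison with the largest change and at least 5 FPM in the higher group could be named, with paralogues and partners, and the 3 genes closest to each gene by Pearson correlation. Coordinates and exon lengths are from GENCODE M21 on GRCm38, which held 34490 of the identifiers (97.8%), and promoters are from RefSeq.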

Additional observations from a re-analysis of the deposited data

Results flagged for a closer look

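For 2 genes, limma called the MUNC lines on opposite sides of control and different from each other. These calls were required for a gene to be listed here, so the differences between the lines restate that selection. Pparg was higher in MUNC spliced than in MUNC genomic cells by 1.17 in GM and by 1.84 in DM3 on the log2 scale. Cebpd was higher by 1.82 in GM and by 1.62 in DM3. In both media all 3 MUNC spliced libraries exceeded all 3 MUNC genomic libraries for both genes. For Pparg in GM the calls against control were fragile, lost in 6 of 10 alternatives for MUNC spliced and 7 of 10 for MUNC genomic cells. Another 2 genes changed differently between GM and DM3 in MUNC genomic than in control cells, by a limma interaction term. That difference was −1.30 for Lpl, which had few or no reads in control cells, and −0.80 for Runx2. The Runx2 call was lost in 6 of 12 fits with a library left out. For Lpl it largely restates the fall in MUNC genomic cells, since control GM had no reads.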

How the results depend on the processing

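For the 47 called changes of the 8 tested genes, the 10 alternatives gave 470 values, of which 439 kept direction and call, 31 kept direction without passing and 0 reversed. Leaving out each library gave 294 further values, of which 39 no longer passed and 0 reversed. Of 200 values for the 20 printed changes that were not called, 17 passed and 1 reversed: Runx2 in MUNC genomic against control GM was 0.021 with equal sums per library. Leaving out a library reversed 3 of those that were not called: Runx1 in MUNC genomic against control DM3 ranged from −0.15 to 0.081, Runx2 in control DM3 against GM from −0.015 to 0.26, and Runx2 in MUNC genomic against control GM from −0.13 to 0.079. The count of tested genes called moved as follows. With no filter it was 3 in control DM3 against GM, 5 in MUNC spliced DM3 against GM (with Sp7 and Alpl then tested) and 3 in MUNC genomic against control GM. For the interaction of MUNC spliced cells it was 1 with a pseudocount of 0.1, 1 with no filter, 2 with edgeR and 2 with DESeq2. Leaving out a library gave 3 to 6 in control DM3 against GM, 3 to 5 in each MUNC line against control GM and 1 to 2 for the interaction of MUNC genomic cells. Over all genes, using only the groups compared called 3046 in MUNC spliced DM3 against GM, against 4933, and 1214 for the MUNC spliced interaction, against 1993. Leaving out a library called 1063 to 2434 and 784 to 1345 genes for the MUNC spliced and MUNC genomic interactions, and edgeR called 777 for the second, against 1222. The cause of these moves was not tested. The replicate block called 3868 and 2265 genes for those interactions. Of the 47 calls the replicate block lost 0, and it added the 3 given beside Cebpb and Fabp4 and Cebpb between the MUNC lines in DM3 (adjusted p = 0.0288), where the numbers were not shown to pair the libraries. With equal sums, 66.1% of all calls in MUNC spliced against control GM were higher, against 51.3% as deposited. The same share became 56.2%, from 45.6%, in MUNC genomic against control GM and 41.4%, from 51.7%, for the MUNC spliced interaction. Stability was also followed for 42 changes of list genes, not all of which are printed above. Of their values, 417 of 420 under the alternatives and 245 of 252 with a library left out kept direction and call. The others concern Enpp1 and Runx3, kept their direction and are given beside them. Counts of list genes called stayed within 1.5 times in 510 of 550 values under the alternatives and in 323 of 390 with a library left out. Against the authors' deposited tables, 40 of 40 changes had the same sign and 39 the same side of the threshold. Depth limits Sp7, Alpl, Fabp4 in MUNC spliced GM and, outside MUNC genomic cells, Lpl, which had at most 20 reads per library.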
